A study of Mus musculus with 21 samples.

Results

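Tumours of the Myc-CaP knockout line KO3 were compared with wild-type (WT) Myc-CaP tumours across all genes measured. The comparison took the libraries that the labels give as KO3 tumours (3) and as wild-type tumours (4), 7 of the 21 libraries of the series. KO3 was singled out because its tumours carry targets of the transcription factor XBP1s at levels near those of WT tumours, although the line was made to lack IRE1α. The question was what still differed from WT in those tumours.

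KO3 tumours grew from 1 line of Myc-CaP cells in which CRISPR-Cas9 and a single guide RNA were used to knock out Ern1, the gene of IRE1α, and WT tumours grew from unedited Myc-CaP cells. All tumours were grown in FVB mice, and all Myc-CaP cells descend from a mouse prostate cancer driven by a Myc transgene. KO1 and KO2 tumours (3 each), KO3 cells (2) and WT cells (2) grown in culture are used below as points of comparison. Each genotype-line is represented once: there were 3 KO lines and 1 WT line, so an effect of the knockout, of the clone and of the line's history cannot be told apart. A tumour library also holds RNA of host cells, and in such bulk RNA fewer cells of a type and less RNA per cell cannot be told apart.

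IRE1α sits in the membrane of the endoplasmic reticulum (ER) and is one of the sensors of unfolded protein there. When active, its RNase domain splices Xbp1 mRNA, and the spliced form encodes XBP1s, which switches on genes for protein import into the ER, folding, glycosylation and the removal of misfolded proteins. The other arms of the response run through ATF6, which drives many ER chaperones, and through PERK and ATF4, which drive amino acid and stress genes. In tumours this response has been studied for its part in cell growth under stress and in the interferon and immune genes of the surrounding tissue.

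The KO3 tumour libraries held 20574009 to 24280799 counts and the WT tumour libraries 16613937 to 27164022. In WT tumour 4 the gene Yam1 took 24% of all counts, against 6.16% to 8.47% in the 12 other tumours of the series. WT tumour 1 stood apart in host tissue: the CPM (counts scaled to library size, by TMM over the 13 tumours) of 20 skeletal muscle markers summed to 6032 there, against 11.3 to 24.7 in KO3 tumours and 15.1 to 105 in the 3 other WT tumours. Neutrophil markers summed to 8.26 to 9.90 CPM in KO3 tumours, and to 320 CPM in WT tumour 1 and 6.48 to 9.62 CPM in the other WT tumours. The prostate luminal markers Hoxb13 and Foxa1 were present in every tumour. Of the epithelial markers, Krt8 was at 83.7 to 303 CPM in KO3 tumours and 109 to 189 CPM in WT tumours, while Epcam and Krt18 were at or near 0 in all 7 libraries, with at most 0.242 CPM.

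The targeted gene was looked at first. The guide is shown because every KO line was made with it, with the NGG motif that follows it in the genome in capitals.
Ern1 guide: gcttgcatgctgttagcaagAGG
It lies in exon 2 of Ern1, in the coding sequence, at chr11:106458942-106458961 of GRCm38, and reads in the direction of the gene, which is on the minus strand. Ern1 mRNA was at 65.4, 59.0 and 58.8 CPM in the 3 KO3 tumours, against 65.6, 83.4, 77.0 and 66.0 CPM in the 4 WT tumours. The groups did not overlap, but by a narrow gap, and the log2 fold change of -0.26 ± 0.12 (SE) did not pass (adjusted p = 0.453, edgeR). In culture the order was the other way, with 183 ± 6.98 CPM in KO3 cells and 129 ± 11.7 CPM in WT cells (SD, n = 2 each). Counts per gene cannot show whether the reading frame was broken at the guide's site, so the edit itself is not checked by them.

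Across 13795 genes tested, 37 differed between KO3 and WT tumours at an adjusted p under 0.05 by edgeR's quasi-likelihood test, which is 0.268% of the genes tested. Of these, 14 were higher in KO3 tumours (0.101%) and 23 lower (0.167%), and 28 changed 2-fold or more. For all 37 the KO3 and WT libraries did not overlap, as was so for 5.57% of all tested genes in the higher direction and 6.5% in the lower. The median log2 fold change over all tested genes was -0.03, and the 5th to 95th percentile ran from -0.80 to 0.49. The count depended on the method and on single libraries. It was 377 by DESeq2, 355 by limma voom with sample quality weights and 179 (1.24% of the genes tested there) in an edgeR fit that drew its spread from all 13 tumours, and each of these held all 37 genes. Without WT tumour 1 it was 108 and without WT tumour 4 it was 21, of which 37 and 18 were among the 37. Without WT tumours 2 or 3 it was 6 and 8, and without KO3 tumours 1, 2 or 3 it was 22, 7 and 2. Nebl and Rhox5 were the 2 genes that passed in each of these 7 fits.

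**Figure D1:**
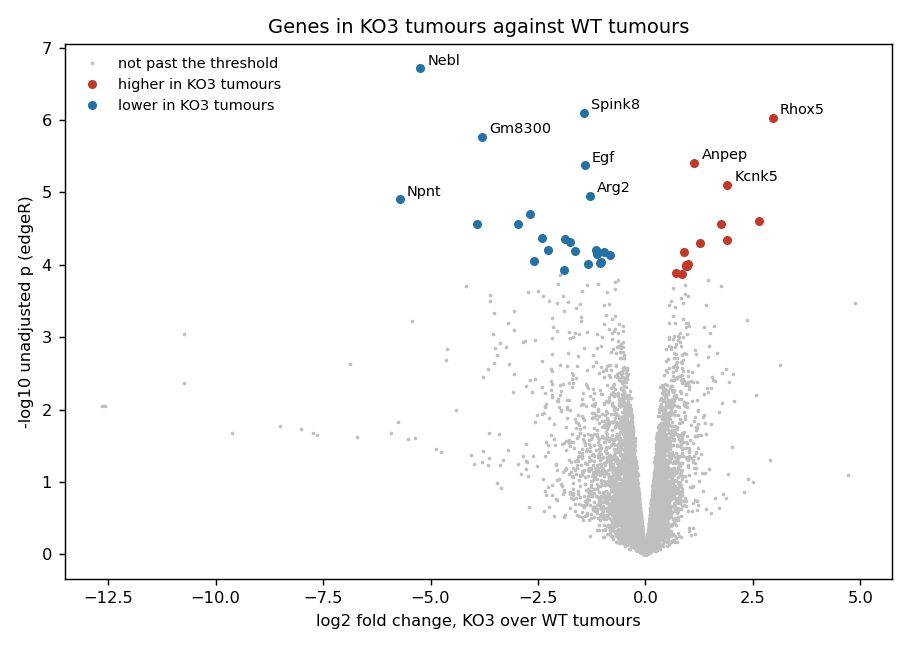
Log2 fold change of KO3 over WT tumours against -log10 of the unadjusted p from edgeR, 1 point per tested gene (13795). The 14 genes higher in KO3 tumours are red and the 23 lower are blue. The falls reach further from 0 than the rises.

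Of the 14 genes that rose, Rhox5 and Xlr lie on the X chromosome and belong to families best known from germ cells and lymphoid cells. Rhox5, a homeobox gene of the reproductive tract at chrX:37804842-37808876, was at 24.9, 35.9 and 49.2 CPM in KO3 tumours, against 5.41, 4.11, 5.08 and 4.08 CPM in WT tumours. Every KO3 tumour lay well above every WT tumour, a log2 fold change of 2.96 ± 0.24 (SE; adjusted p = 0.0043, edgeR), the largest rise among the 14. Xlr was at 75.7, 104 and 87.2 CPM in KO3 tumours, against 29.1, 36.9, 33.8 and 47.0 CPM in WT tumours, a log2 fold change of 1.28. Xlr belongs to a family of near copies, so its reads could have been shared with other members.

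Vil1, the actin-bundling protein of microvilli, was at 14.0, 10.2 and 12.6 CPM in KO3 tumours, against 1.60, 1.78, 1.21 and 3.36 CPM in WT tumours, with no overlap (log2 fold change 2.64). Anpep, aminopeptidase N of the brush border, was at 128, 127 and 137 CPM in KO3 tumours, against 59.0, 52.9, 66.3 and 58.5 CPM in WT tumours. Its libraries were close together within each group, and the log2 fold change was 1.14 ± 0.11 (SE; adjusted p = 0.00976, edgeR). Scnn1g, the gamma subunit of the epithelial sodium channel, averaged 58.6 ± 13.3 CPM in KO3 tumours (SD, n = 3) and 17.3 ± 4.18 CPM in WT tumours (SD, n = 4). Kcnk5, a background potassium channel, was at 9.25, 8.68 and 8.63 CPM in KO3 tumours, against 2.35, 2.17, 2.91 and 2.0 CPM in WT tumours, a log2 fold change of 1.90 ± 0.20 (SE; adjusted p = 0.0156, edgeR). B3gnt7, which extends sugar chains of glycoproteins, Ptgs1, which encodes cyclooxygenase 1, and the cell adhesion gene Pcdh1 rose by 1.0, 0.95 and 0.70 on the log2 scale. Tnxb, the matrix protein tenascin X, rose by 0.94, to 248 ± 40.7 CPM in KO3 tumours (SD, n = 3), against 129 ± 11.3 CPM in WT tumours (SD, n = 4).

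Foxj1, the transcription factor that directs the making of motile cilia, was at 118, 209 and 218 CPM in KO3 tumours, against 36.3, 40.0, 61.0 and 56.6 CPM in WT tumours. The KO3 tumours were all above the WT tumours but differed among themselves, with a log2 fold change of 1.90 ± 0.26 (SE; adjusted p = 0.0363, edgeR). Of 16 cilium genes listed only 4 had enough counts to be tested, and none but Foxj1 passed. Trim44, a tripartite motif protein, rose by 0.90 on the log2 scale, and its gene overlaps another annotated gene on the same strand. The 2 remaining rises, Ifit1 and Helz2, are induced by interferon and are taken up with the interferon genes.

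The falls were larger. Nebl, which encodes the actin-binding protein nebulette at chr2:17343909-17731464, was at 0.327, 0.373 and 0.613 CPM in KO3 tumours, against 11.3, 21.6, 13.4 and 20.1 CPM in WT tumours. Its lowest WT tumour lay far above its highest KO3 tumour, a log2 fold change of -5.24 ± 0.36 (SE; adjusted p = 0.00267, edgeR), the smallest p of all genes. Npnt, nephronectin, a matrix ligand of integrins, was at 0.245, 0 and 0.0943 CPM in KO3 tumours, against 5.79, 5.12, 6.36 and 8.73 CPM in WT tumours. The KO3 levels were at or near the 0.124 to 0.146 CPM that 3 counts stand for in these libraries, so the fitted log2 fold change of -5.72 is loosely set at its far end. Mapk13, the stress kinase p38 delta, was at 3.97, 0.654 and 1.65 CPM in KO3 tumours, against 29.8, 29.9, 33.3 and 33.9 CPM in WT tumours. The WT tumours agreed closely and the KO3 tumours were spread, and Mapk13 fell by 3.91 on the log2 scale.

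**Figure D2:**
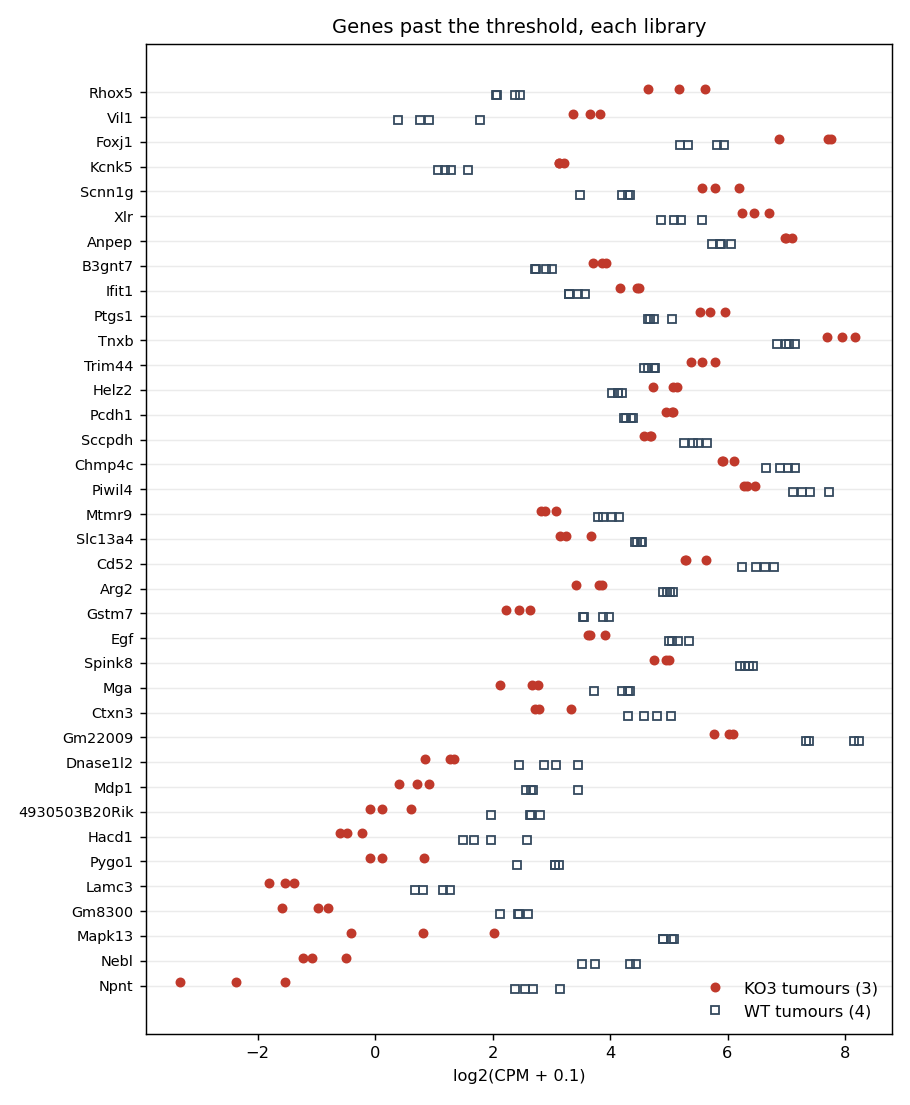
Level of each of the 37 genes in each library, as log2(CPM + 0.1), with KO3 tumours as filled red circles and WT tumours as open squares, ordered by log2 fold change. No gene has a KO3 library within the range of the WT libraries.

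The falls included Mga and Pygo1, both regulators of other genes. Mga binds MAX, the partner of MYC, and represses genes that MYC-MAX activates. It was at 4.26, 6.72 and 6.27 CPM in KO3 tumours, against 18.4, 13.2, 19.7 and 20.3 CPM in WT tumours, with no overlap (log2 fold change -1.64). Of 11 tested genes of the MYC and MAX network none but Mga passed; Myc itself averaged 290 ± 77.9 CPM in KO3 tumours (SD, n = 3) and 388 ± 74.9 CPM in WT tumours (SD, n = 4), with overlapping libraries. Pygo1, a coactivator in Wnt signalling, fell by 2.69 on the log2 scale and Piwil4, a Piwi protein of the germline small RNA pathway, fell by 1.04.

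Spink8, a protease inhibitor of the Kazal type, was at 26.6, 30.7 and 31.9 CPM in KO3 tumours, against 86.1, 78.5, 82.0 and 74.1 CPM in WT tumours. The groups were tight and far apart, a log2 fold change of -1.44 ± 0.12 (SE; adjusted p = 0.0043, edgeR). Egf, the epidermal growth factor gene, was at 15.1, 12.6 and 12.2 CPM in KO3 tumours, against 33.1, 31.8, 40.6 and 35.4 CPM in WT tumours, and fell by 1.41. Cd52, a small glycoprotein of lymphocytes and of the epithelium of the male genital tract, was at 49.6, 38.7 and 39.0 CPM in KO3 tumours, against 99.5, 111, 89.5 and 75.6 CPM in WT tumours. The leukocyte marker Ptprc overlapped between the groups, at 11.9 to 25.6 CPM in KO3 tumours and 10.3 to 33.1 CPM in WT tumours, and its part in the level of Cd52 was not tested. The sulfate carrier Slc13a4, the DNase Dnase1l2 and the cortexin gene Ctxn3 fell by 1.13, 1.89 and 1.75 on the log2 scale.

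Arg2, the mitochondrial arginase, was at 10.6, 14.5 and 13.9 CPM in KO3 tumours, against 31.4, 32.3, 29.8 and 33.7 CPM in WT tumours, a log2 fold change of -1.29 ± 0.15 (SE; adjusted p = 0.0192, edgeR). Hacd1, an enzyme of very long chain fatty acid elongation, fell by 2.60, the phosphatase gene Mdp1 by 2.27 and the glutathione transferase gene Gstm7 by 1.33. Gstm7 has close relatives, of which Gstm1 and Gstm2 had log2 fold changes of -1.08 and -0.97 and did not pass, and reads could have been shared among them. Hacd1 and Mdp1 overlap other annotated genes on the same strand, as do Anpep, Egf and 4930503B20Rik. The 7 falls not yet named, 3 of them under predicted or clone names, were Gm8300 (-3.80), the laminin gene Lamc3 (-2.96), 4930503B20Rik (-2.41), Gm22009 (-1.87), the myotubularin-related gene Mtmr9 (-1.05), the ESCRT-III gene Chmp4c (-0.96) and Sccpdh (-0.81). Gm22009 is a small Cajal body RNA inside Kpna4, whose reads could have been counted to it. Piwil4 and these 7 are named after their values were seen, to complete the count.

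The targets of XBP1s were near WT in KO3 tumours but mostly on the lower side. KO3 was singled out for targets near WT in these same tumours, so the lack of calls among them is in part set by that choice. None of 38 tested members passed, 32 had a log2 fold change below 0, where 53.9% of all tested genes did, and the median was -0.21, against -0.03 over all tested genes. For 11 members every KO3 tumour lay below every WT tumour, against 6.5% of all tested genes. An unadjusted p under 0.05 on the lower side was found for 12 members, against 6.59% of all tested genes (edgeR). Sec24d, a coat protein of vesicles that leave the ER, was at 57.3, 52.0 and 48.7 CPM in KO3 tumours, against 69.8, 86.1, 74.8 and 72.5 CPM in WT tumours, a log2 fold change of -0.53 that did not pass (adjusted p = 0.118, edgeR). The groups did not overlap, and Sec24d passed by DESeq2, by limma voom and in the fit of 13 tumours. Edem1, which directs misfolded glycoproteins to degradation, was at 149, 183 and 172 CPM in KO3 tumours, against 235, 331, 240 and 185 CPM in WT tumours, and did not pass (adjusted p = 0.31, edgeR). Dnajb9, a co-chaperone of the ER, was at 37.5 ± 2.31 CPM in KO3 tumours (SD, n = 3) and 48.3 ± 8.40 CPM in WT tumours (SD, n = 4), with overlapping libraries. Xbp1 itself, at 91.7 ± 11.4 CPM in KO3 tumours (SD, n = 3) and 85.2 ± 12.0 CPM in WT tumours (SD, n = 4), overlapped too; the counts do not separate its spliced from its unspliced form.

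No member of the lists of ATF6 and ATF4 targets passed. The median log2 fold change was -0.17 over 12 ATF6 targets, with Hspa5, the chaperone BiP, at -0.15, and -0.17 over 28 ATF4 targets. Ddit3, which encodes CHOP, was at 19.2, 6.68 and 5.90 CPM in KO3 tumours, against 51.3, 18.5, 14.7 and 12.8 CPM in WT tumours; tumour 1 was the highest of each group and the groups overlapped. Eif2ak3, the gene of PERK, was at 11.3 CPM on average in KO3 tumours and 19.3 CPM in WT tumours, with no overlap and an adjusted p of 0.0942 by edgeR. Like Sec24d, it passed by DESeq2, by limma voom and in the fit of 13 tumours. Among 25 genes of hypoxia and glycolysis, 23 had a log2 fold change below 0, where 53.9% of all tested genes did, the median was -0.29 and none passed. The kinase gene Pdk1 and the ER oxidase gene Ero1l, with log2 fold changes of -0.65 and -0.58, were the 2 members whose groups did not overlap, a share near the 6.5% of all tested genes on the lower side, and both passed by limma voom.

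Interferon genes lay on the higher side. All 35 tested type I interferon-stimulated genes had a log2 fold change above 0, where 46.1% of all tested genes did, and their median was 0.52. For 18 of them every KO3 tumour lay above every WT tumour, against 5.57% of all tested genes, and 20 had an unadjusted p under 0.05 on the higher side, against 4.55%. Only Ifit1 passed. Ifit1, which binds viral RNA, was at 22.4, 21.8 and 17.9 CPM in KO3 tumours, against 9.75, 9.77, 11.7 and 10.9 CPM in WT tumours, a log2 fold change of 0.97 ± 0.15 (SE; adjusted p = 0.0426, edgeR). It kept that call in 6 of 10 other settings. Among the losses were those with the length-scaled table, with WT tumours 3 and 4 summed, and with WT tumours 1 and 4 left out. It was also lost in 6 of the 7 fits with 1 library left out, where its adjusted p reached 0.244 by edgeR. Helz2, an interferon-induced helicase that is not on the list, was at 33.6, 26.5 and 35.3 CPM in KO3 tumours, against 17.6, 17.4, 18.3 and 16.3 CPM in WT tumours, and rose by 0.86. Ifit3, beside Ifit1 on chromosome 19, was at 19.6, 17.2 and 15.5 CPM in KO3 tumours, against 8.0, 8.92, 11.7 and 7.69 CPM in WT tumours, and did not pass (adjusted p = 0.0975, edgeR). Oasl2 and the RNA sensor gene Ddx58 had log2 fold changes of 0.81 and 0.59, with no overlap. Of the list, 10 members passed by DESeq2, 11 by limma voom and 5 in the fit of 13 tumours, among them Ifit1, Ifit3, Oasl2 and Ddx58 each time. On the higher side 142, 148 and 79 of all tested genes passed in these fits.

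**Figure D3:**
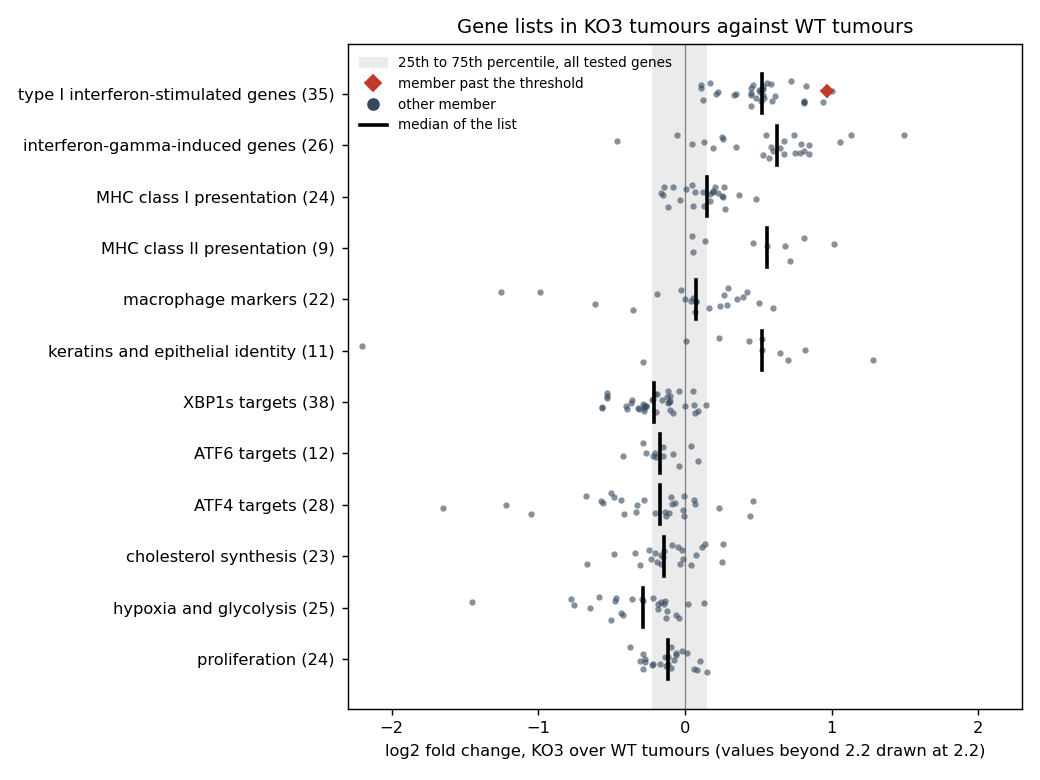
Log2 fold change of KO3 over WT tumours for the tested members of 12 gene lists, with the number tested in brackets, the list's median as a black bar and the 25th to 75th percentile of all tested genes shaded. The 2 interferon lists and the MHC class II list have medians of 0.52, 0.63 and 0.56, to the right of the shaded band. Keratins and epithelial identity, at 0.52, also lie to its right, and MHC class I, at 0.149, lies at its right edge of 0.146. Hypoxia and glycolysis, at -0.29, lie to its left. The XBP1s targets, at -0.21, lie within it, near its left edge of -0.22.

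Genes induced by interferon gamma lay on the higher side too. Of 26 tested, 24 had a log2 fold change above 0, where 46.1% of all tested genes did, and the median was 0.63. For 8 of them every KO3 tumour lay above every WT tumour, against 5.57% of all tested genes, and none passed. By DESeq2 6 of them passed, by limma voom 7 and in the fit of 13 tumours 4, with Tgtp1, Irgm1 and Irf1 each time. Among all tested genes 142, 148 and 79 passed on the higher side in these fits. Tgtp1, an interferon-induced GTPase gene, averaged 75.9 CPM in KO3 tumours and 27.0 CPM in WT tumours. Irgm1, a GTPase of cell-autonomous defence, averaged 50.7 CPM in KO3 tumours and 29.4 CPM in WT tumours. The adjusted p values of Tgtp1 and Irgm1 were 0.106 and 0.112 by edgeR. Irf1, a transcription factor of the same response, was at 36.1, 44.9 and 53.8 CPM in KO3 tumours, against 33.0, 28, 28.6 and 24.2 CPM in WT tumours. Irf7 did not overlap either, with 44.4 ± 7.23 CPM in KO3 tumours (SD, n = 3) and 30.7 ± 5.19 CPM in WT tumours (SD, n = 4), while Cxcl10 did, at 3.97 to 5.93 CPM in KO3 tumours and 2.72 to 4.24 CPM in WT tumours. Class I antigen presentation lay closer to 0, with a median of 0.15 over 24 genes. B2m, the light chain of class I molecules, had a log2 fold change of -0.03, H2-K1 one of 0.19 and the checkpoint ligand gene Cd274 one of -0.06, all with overlapping libraries and with signs that turned in some of the other fits. All 9 tested class II genes were above 0, with a median of 0.56, and none of them had groups that did not overlap.

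The levels of immune cell markers beside these genes were as follows. The type I interferon-stimulated genes summed to 1539, 1366 and 1421 CPM in KO3 tumours, against 1251, 1083, 1119 and 1088 CPM in WT tumours, with no overlap. The genes induced by interferon gamma summed to 318 to 462 CPM in KO3 tumours and to 205 to 271 CPM in WT tumours. Markers of macrophages (23 genes) summed to 1326 to 1751 CPM in KO3 tumours and 688 to 2031 CPM in WT tumours, and T cell markers (17 genes) to 15.6 to 26.7 CPM in KO3 tumours and 9.53 to 32.9 CPM in WT tumours. Markers of cytotoxic T and NK cells (18 genes) summed to 6.55, 12.3 and 14.7 CPM in KO3 tumours, against 8.57, 5.93, 6.78 and 5.04 CPM in WT tumours; the groups overlapped, with the highest libraries in KO3, and Gzmk was at 0 in both. Their part in the interferon genes was not tested.

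The promoters of Ifit1 and Ifit3 are shown because both genes sit together on chromosome 19 and were higher in every KO3 tumour. The windows are the 250 bases before the RefSeq start in GRCm38.p6, on the plus strand and written 5′ to 3′. Capitals mark matches, on either strand, of GAAANNGAAA, the core of the element that interferon-activated factors bind.
Ifit1, chr19:34640639-34640888: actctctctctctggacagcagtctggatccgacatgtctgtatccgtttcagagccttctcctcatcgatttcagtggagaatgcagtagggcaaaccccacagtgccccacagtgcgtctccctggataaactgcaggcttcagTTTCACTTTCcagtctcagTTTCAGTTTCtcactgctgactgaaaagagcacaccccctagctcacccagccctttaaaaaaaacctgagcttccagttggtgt
Ifit3, chr19:34583279-34583528: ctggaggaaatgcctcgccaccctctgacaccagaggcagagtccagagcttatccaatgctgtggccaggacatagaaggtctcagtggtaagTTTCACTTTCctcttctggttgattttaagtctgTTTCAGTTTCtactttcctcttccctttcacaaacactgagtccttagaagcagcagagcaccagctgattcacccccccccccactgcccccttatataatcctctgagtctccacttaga
Each window held 2 matches, which began 104 and 85 bases before the start of Ifit1 and 156 and 122 bases before that of Ifit3. The motif was found in 978 of 32851 windows of this length (2.98%) and in 314 of the 9889 tested genes that had a window (3.18%). It was found in 11 of 25 type I interferon-stimulated genes, 10 of 18 genes induced by interferon gamma, 2 of 29 XBP1s targets and 3 of 26 genes past the threshold. The windows of Helz2, Oasl2 and Ddx58 held no match. A match describes the letters of the window and is not a site shown to be bound.

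Each difference in the tumours was then looked up in cultured cells, which are separate libraries of the same lines. In KO3 cells 2995 of 12254 genes differed from WT cells (24.4%), of which 1272 were higher (10.4%) and 1723 lower (14.1%). Of the 37 genes of the tumours, 32 were tested in cells, 29 had the same sign there and 18 passed in the same direction. These 18 are 56.25% of the 32 and 0.616% of the 2920 genes that differed in cells and were tested in tumours. The second share could not be large, since only 37 genes passed in tumours. Of the 2920 genes, 1981 had the same sign in tumours as in cells. The share of all genes with the same sign in both was not counted. Cells of 1 line share its history, so the cells are no replicate of the knockout.

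**Figure D4:**
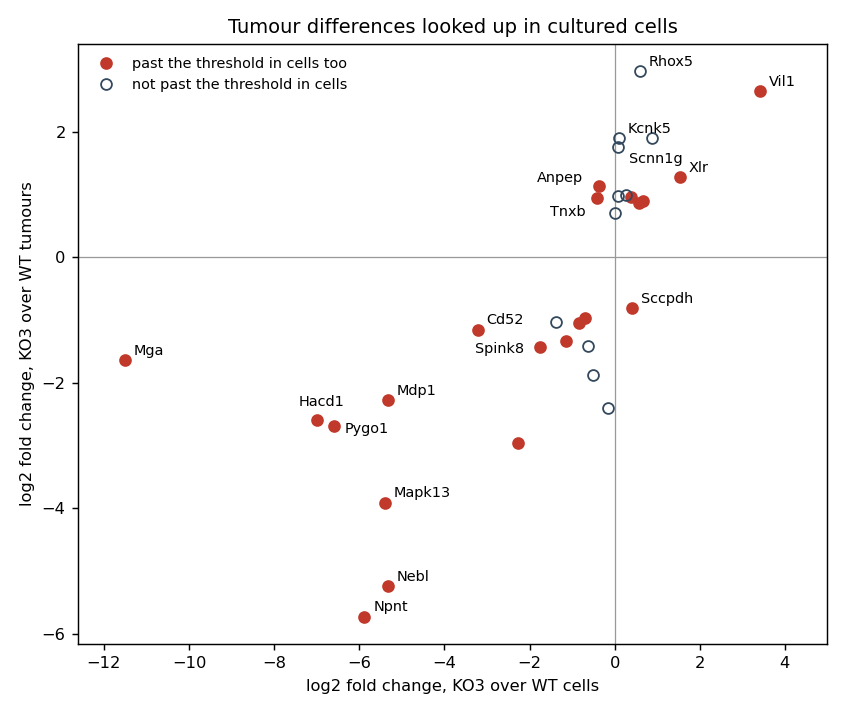
Log2 fold change in tumours against that in cells, KO3 over WT, for the 32 of the 37 genes tested in both, with those past the threshold in cells filled. Most points lie in the lower left and upper right, and Anpep, Tnxb and Sccpdh lie across from their tumour sign.

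The genes that were low in KO3 tumours were often nearly absent from KO3 cells. Mga was at 0 in both KO3 cell libraries, where 3 counts would stand for 0.135 and 0.12 CPM, against 16.8 and 17.3 CPM in WT cells. It was also at 0 in the 4 libraries of KO1 and KO2 cells. Pygo1 and Hacd1 were likewise at 0 in all KO cells and at 0.543 to 0.772 CPM in WT cells. Npnt was at 0.129 ± 0.0713 CPM in KO3 cells and 7.76 ± 0.151 CPM in WT cells, and Mapk13 at 0.146 ± 0.0159 CPM in KO3 cells and 6.44 ± 0.643 CPM in WT cells (SD, n = 2 each). Vil1 and Xlr rose in cells too: Vil1 was at 28 ± 1.39 CPM in KO3 cells and 2.61 ± 0.145 CPM in WT cells, and Xlr at 58.0 ± 2.58 CPM in KO3 cells and 20.2 ± 1.60 CPM in WT cells (SD, n = 2 each). Slc13a4 was at 0 in KO3 and WT cells, and Gm8300, Arg2, Ctxn3 and Dnase1l2 were too low there to be tested.

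Trim44, Ptgs1 and Helz2 also passed in cells in the same direction, with log2 fold changes of 0.66, 0.38 and 0.58. Beside these and Vil1 and Xlr, the genes that rose in the tumours did not pass in the cells, or passed there in the other direction. Foxj1 was at 1.26 ± 0.444 CPM in KO3 cells and 0.673 ± 0.414 CPM in WT cells, and Ifit1 at 0.678 ± 0.262 CPM in KO3 cells and 0.661 ± 0.525 CPM in WT cells (SD, n = 2 each). Neither passed in cells or in the test of the difference between tumours and cells, at low levels and with 2 libraries a group. Anpep was lower in KO3 cells, at 130 ± 2.94 CPM, against 169 ± 5.71 CPM in WT cells (SD, n = 2 each), and Tnxb fell by 0.43 on the log2 scale. Sccpdh, which fell in tumours, rose by 0.40 in cells. Over the interferon lists, 22 type I genes were tested in cells and had a median of 0.15. Past the threshold 4 were higher and 2 lower, against 10.4% and 14.1% of all genes tested in cells. The 16 genes induced by interferon gamma that were tested there had a median of 0.10.

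XBP1s targets were lower in the cells. In KO3 cells 36 of 38 fell past the threshold, with a median of -1.08, and 11 of 12 ATF6 targets fell, with a median of -0.97. Of all genes tested in cells 14.1% fell. Sec24d was at 34.4 ± 4.07 CPM in KO3 cells and 159 ± 5.05 CPM in WT cells, and P4hb, protein disulfide isomerase, at 730 ± 0.385 CPM in KO3 cells and 1771 ± 49.3 CPM in WT cells (SD, n = 2 each). In tumours P4hb was at 1984, 1759 and 1708 CPM in KO3 and at 2126, 2319, 2000.3 and 1936 CPM in WT, with overlap.

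The difference between the effects in tumours and in cells was tested by an interaction over the 11 KO3 and WT libraries. It passed for 129 of 14595 genes (0.884%), of which 114 were higher in tumours relative to cells (0.781%) and 15 lower (0.103%). Among XBP1s targets 17 passed, all higher, and among ATF6 targets 5; KO3 was chosen for its XBP1s targets in tumours, so this count is in part set by that choice. Sec24d was among the 5 genes of smallest p in that direction, with a difference of 1.68 (adjusted p = 0.00203, edgeR), and Dnajb9 had one of 1.23. Of the 37 genes 7 passed: Rhox5 (2.37), Scnn1g (1.69), Anpep (1.51), Tnxb (1.37), Pcdh1 (0.70) and Mga (9.81) higher, and Sccpdh (-1.21) lower. The value for Mga depends on the prior count of the fit, since its level in KO3 cells was 0, and is no bound. Ass1, the argininosuccinate synthase of the urea cycle, had the smallest p of the higher genes: it was at 138 ± 10.5 CPM in KO3 tumours (SD, n = 3) and 106 ± 15.6 CPM in WT tumours (SD, n = 4), and at 0.207 ± 0.0397 CPM in KO3 cells and 4.12 ± 0.526 CPM in WT cells (SD, n = 2 each). Adh1, an alcohol dehydrogenase, was 2.05 higher in the same sense. On the lower side were Kctd12b (-2.39), at 88.5 ± 1.43 CPM in KO3 cells and 14.4 ± 1.37 CPM in WT cells (SD, n = 2 each) and overlapping in tumours, and Endod1 (-1.83). The count ran from 11 without KO3 cells 2 to 253 without WT tumour 1.

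KO3 tumours were last set against tumours of the other knockout lines, KO1 and KO2, which leaves WT tumours out. This comparison uses the same KO3 libraries as that with WT, so a gene unusual in them can pass in both. It found 273 of 14483 genes (1.88%), 172 higher in KO3 tumours (1.19%) and 101 lower (0.697%). The count ran from 71 without KO3 tumour 3 to 269 without KO3 tumour 1. Of 39 XBP1s targets, 30 were higher in KO3 tumours, with a median of 0.68, which restates why KO3 was singled out and is no separate result. Of 12 ATF6 targets, 6 were higher. Creb3l2, an ER-bound transcription factor, was at 64.7 ± 1.5 CPM in KO3 tumours and at 20.6 ± 0.306 CPM in KO1 and 17.0 ± 0.846 CPM in KO2 tumours (SD, n = 3 each), against 60.4 ± 5.30 CPM in WT tumours (SD, n = 4). None of the interferon genes of either list passed in this comparison. Against WT tumours, the type I list had median log2 fold changes of 0.67 in KO1 and 0.31 in KO2 tumours. The list of genes induced by interferon gamma had 0.65 and 0.15.

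Of the 37 genes, 10 also passed against KO1 and KO2, in the same direction as against WT. Rhox5 was at 36.7 ± 12.2 CPM in KO3, 6.61 ± 1.91 CPM in KO1 and 11.7 ± 3.20 CPM in KO2 tumours (SD, n = 3 each), a log2 fold change of 2.06 of KO3 over the others (adjusted p = 0.000498, edgeR). B3gnt7 was at 14.3 ± 1.09 CPM in KO3, 3.36 ± 0.885 CPM in KO1 and 8.73 ± 2.09 CPM in KO2 tumours (SD, n = 3 each). These 2 were the rises. Egf was at 13.3 ± 1.55 CPM in KO3, 41.5 ± 4.67 CPM in KO1 and 31.9 ± 7.42 CPM in KO2 tumours (SD, n = 3 each), a log2 fold change of -1.45 (adjusted p = 0.000421, edgeR). Slc13a4 was at 10.3 ± 2.09 CPM in KO3, 33.3 ± 3.88 CPM in KO1 and 20.5 ± 5.01 CPM in KO2 tumours, and Cd52 at 42.4 ± 6.20 CPM in KO3, 94.4 ± 13.5 CPM in KO1 and 90.9 ± 35.9 CPM in KO2 tumours (SD, n = 3 each). For Egf, Slc13a4 and Cd52 the means of KO1 and KO2 tumours lay near or above those of WT tumours, at 35.2 ± 3.85, 22.4 ± 0.847 and 93.8 ± 14.9 CPM (SD, n = 4). Spink8, Gstm7, Mtmr9, Mapk13 and Npnt had log2 fold changes of -1.0, -0.90, -0.77, -2.47 and -2.77 over the same tumours.

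**Figure D5:**
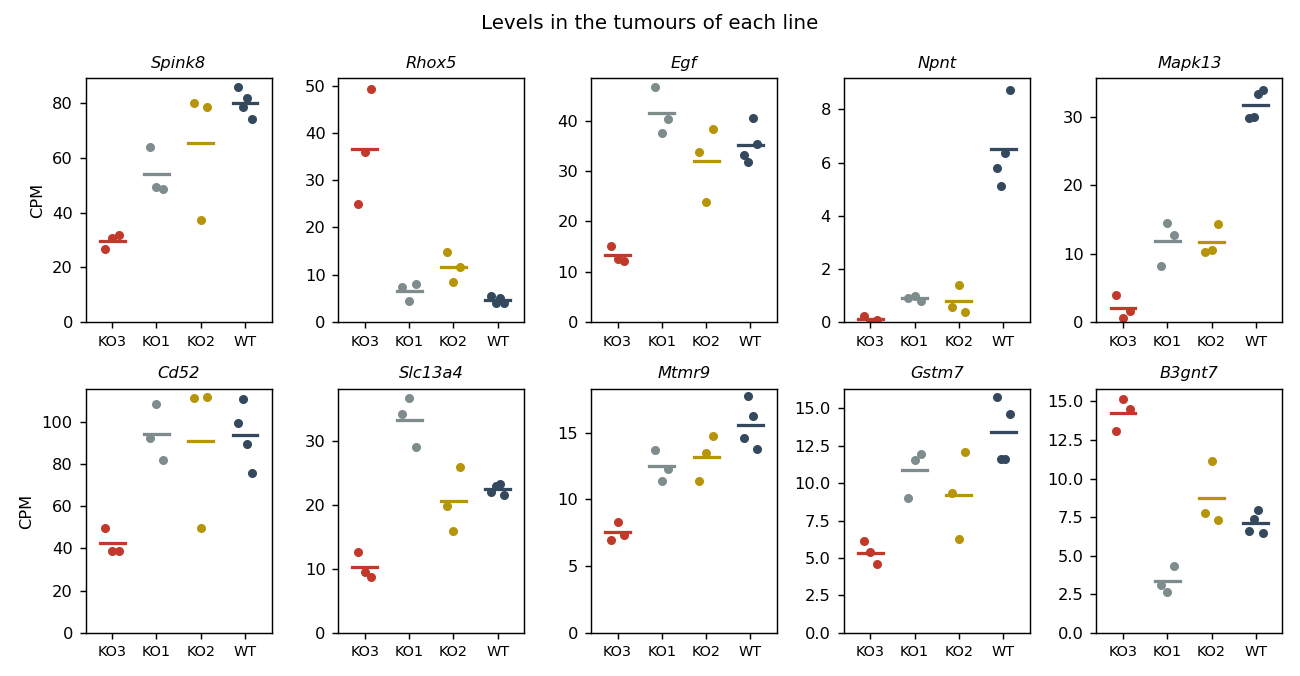
CPM of the 10 genes that passed both against WT and against KO1 and KO2 tumours, in each tumour of KO3, KO1, KO2 and WT, with the mean as a line and axes that start at 0. Every KO3 tumour is above all the others for Rhox5 and B3gnt7 and below all the others for Spink8, Egf, Npnt, Mapk13, Slc13a4, Mtmr9 and Gstm7, while for Cd52 the KO3 range overlaps that of another line.

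In the fit of 13 tumours, 33 of the 37 genes had the same sign against WT in KO1 and in KO2 tumours as in KO3. Of the 37, 23 also passed with that sign in both KO1 and KO2. The WT tumours are shared by these comparisons, so a gene unusual in them can pass in each. The same shares over all tested genes were not counted, so neither count is read as particular to the 37. Some of the 37 stood at like levels in all knockout lines. Nebl was at 0.438 ± 0.154 CPM in KO3, 0.437 ± 0.300 CPM in KO1 and 0.151 ± 0.0694 CPM in KO2 tumours (SD, n = 3 each), against 16.6 ± 4.99 CPM in WT tumours (SD, n = 4). Vil1 was at 12.3 ± 1.92 CPM in KO3, 11.1 ± 1.16 CPM in KO1 and 15 ± 2.34 CPM in KO2 tumours (SD, n = 3 each), against 1.99 ± 0.946 CPM in WT tumours (SD, n = 4). Foxj1 was at 182 ± 55.3 CPM in KO3, 123 ± 36.8 CPM in KO1 and 175 ± 38.7 CPM in KO2 tumours (SD, n = 3 each), against 48.5 ± 12.2 CPM in WT tumours (SD, n = 4). Chmp4c was at 63.3 ± 5.16 CPM in KO3, 64.7 ± 7.52 CPM in KO1 and 64.1 ± 4.94 CPM in KO2 tumours (SD, n = 3 each), against 123 ± 17.5 CPM in WT tumours (SD, n = 4). Mga was at 5.75 ± 1.31 CPM in KO3, 7.90 ± 3.34 CPM in KO1 and 3.86 ± 0.899 CPM in KO2 tumours (SD, n = 3 each). None of these 5 passed between KO3 and the other knockout lines, which does not show that the lines are equal.

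Lists with no member past the threshold included proliferation (24 genes, median -0.12) and cholesterol synthesis (23 genes, -0.14). None of 11 tested genes of keratins and epithelial identity passed either, and their median was 0.52. Of these, 9 had a log2 fold change above 0, where 46.1% of all tested genes did. Groups did not overlap for 3 on the higher side and 1 on the lower, against 5.57% and 6.5% of all tested genes. All 9 tested skeletal muscle markers were below 0, with a median of -7.65, and all 8 tested neutrophil markers, with a median of -2.36. Without WT tumour 1 the medians were -1.01 for muscle and 0.29 for neutrophils, and without WT tumours 1 and 4 they were -2.90 and -0.15. None of the muscle or neutrophil markers passed.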

How the data were processed

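RNA from Myc-CaP cells and tumours was sequenced as stranded libraries of polyadenylated RNA in paired 50 bp reads, per the labels' protocols. The deposited values are estimated counts per gene, in a plain and in a length-scaled table of 45706 genes each; 7.96% to 10.2% of the values of a tumour library were not whole. Trim Galore 0.6.7, STAR, Salmon 1.5.2 and GRCm38 are named in the submitters' processing notes, without settings. Every column of the tables was used.

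The plain table was rounded to whole numbers. After filterByExpr and TMM scaling, genes were tested by quasi-likelihood with edgeR 4.0.16 (R 4.3.3), with Benjamini-Hochberg adjustment over all genes tested and a threshold of 0.05. KO3 against WT tumours was fitted on those 7 libraries, cells on all 8 cell libraries, KO3 against KO1 and KO2 on the 13 tumours, and the interaction on the 11 KO3 and WT libraries. Each adjusted p in the text is from these fits unless another tool is named. Standard errors were derived as the absolute fitted log2 fold change divided by the square root of the F of its quasi-likelihood test. CPM values were scaled by TMM over the 13 tumours or over the 8 cell libraries, and a count of 0 was taken to allow up to 3 counts, which covers counting error only. Scores of marker lists used log2 CPM with a prior count of 2. Alternatives used DESeq2 1.42.0 and limma 3.58.1, among others given in the closing section. Figures were drawn with matplotlib 3.10.9.

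The comparison, the 36 gene lists, the markers and the tests were chosen with earlier results of these data known. A set of ER stress, immune and Myc genes was always named. In addition, up to 15 genes past the threshold in each direction were named by size of change, given groups that did not overlap, a mean log2 CPM over the 7 libraries not under 1 and a symbol that is no predicted name. The 3 members of smallest p were named in lists with a member past the threshold, and the 5 genes of smallest p per direction in the interaction. Other list members are examples chosen with their values known. GENCODE M21 held 45143 of the gene IDs and gave positions, and promoter windows came from RefSeq for GRCm38.p6.

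Replicates are separate samples in the labels. Nothing used here says that each tumour came from its own mouse, and WT tumours 3 and 4 have the same number in their descriptions, so the p-values speak only of the spread among these libraries. Replicate numbers were not treated as pairs: same-numbered KO3 and WT tumours deviated together with correlations of -0.158, 0.0931 and -0.155. No pair of replicates of these groups agreed within sampling noise, with a chi-square per degree of freedom of at least 26.1.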

Additional observations from a re-analysis of the deposited data

Results flagged for a closer look

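In 6 of 93 groups of the 4 WT tumours examined, 1 tumour stood far from the others by Dixon's ratio of the gap to the range, whose threshold at 95% depends on the number of samples; chance gives about 1 in 20. The ratio was 0.909 for Pygo1, 0.852 for Scnn1g and 0.864 for Mdp1. It was 0.867 for the neutrophil marker score, which was highest in WT tumour 1, and 0.901 for the score of B and plasma cell markers. It was 0.968 for the share of counts of Yam1, which was highest in WT tumour 4.

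The KO3 effect differed between tumours and cells by the interaction test for these genes, given as the log2 difference of the effect in tumours from that in cells. Among genes past the threshold in tumours it was 2.37 for Rhox5, 1.69 for Scnn1g, 1.51 for Anpep, 1.37 for Tnxb, 0.70 for Pcdh1, 9.81 for Mga and -1.21 for Sccpdh. Among the other named genes it was 4.64 for Ass1, 2.05 for Adh1, 1.68 for Sec24d, 1.23 for Dnajb9 and 8.64 for Hiatl1. On the lower side it was -12.95 for Gm10243, -2.39 for Kctd12b, -6.46 for Aim2, -1.83 for Endod1 and -1.59 for 3830403N18Rik. The sizes for Mga, Hiatl1 and Gm10243 are set by the fit's prior count, because a group of cell libraries was at 0: KO3 cells for Mga and Hiatl1, and WT cells for Gm10243.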

How the results depend on the processing

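The 37 genes of KO3 against WT tumours became 377 with DESeq2, 355 with limma voom and quality weights, 179 with all 13 tumours in the fit, 20 with the length-scaled table and 16 with WT tumours 3 and 4 summed, and 2 to 108 with 1 library left out. With the replicate block it was 25, of which 11 were among the 37; Ifit1 was not among them, and Ddit3, Tgtp1 and Ckm passed. The block gave 2986 genes in cells, 221 against KO1 and KO2 and 103 in the interaction. With RLE scaling, no filter, WT tumours 1 and 4 left out, and Yam1 and Rn18s-rs5 left out, it was 38, 42, 54 and 35. The 2995 genes of KO3 against WT cells became 1928 with the length-scaled table and 1377 to 1916 with 1 library left out, with the lone library of a group taken to vary as the other groups do. The 273 genes against KO1 and KO2 tumours became 640 with DESeq2 and 71 to 269 with 1 library left out. The 129 genes of the interaction became 389 with DESeq2 and 11 to 253 with 1 library left out. Ern1 kept its sign and missed the threshold throughout, with log2 fold changes of -0.37 to -0.16.

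Signs turned only for genes that never passed. B2m, at -0.03, was 0.032 with no filter, 0.017 with the length-scaled table, 0.054 with limma voom, 0.042 without WT tumours 1 and 4, and -0.13 to 0.092 with 1 library left out. Cd274, at -0.06, was 0.0032 with no filter, 0.11 with limma voom, 0.32 without WT tumours 1 and 4, and -0.34 to 0.22 with 1 library left out. H2-K1, at 0.19, was -0.079 to 0.39, the first of these without KO3 tumour 3. Of the values of named genes under all settings, 696 kept their direction and side of the threshold, 248 lost the threshold, 10 gained it and 15 turned. The cause of these shifts was not tested. Depth limits the lowest genes: in KO3 tumours a count of 0 allows 0.124 to 0.146 CPM.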
